A study of Mus musculus with 13 samples.

Results

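The 8 genes described here encode the machinery that ties meiotic telomeres to the nuclear envelope and to the cytoskeleton: *Terb1*, *Terb2*, *Majin*, *Sun1*, *Ccdc155* (the gene of KASH5), *Spdya*, *Cdk2* and *Terf1*. They were chosen by name, and each symbol was matched through GENCODE M21 to 1 row of a table of 55335 genes. All 8 were in the table. Of these, 7 had counts and passed the filter on low counts, and *Spdya* had 0 counts in all 13 libraries.

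In meiotic prophase I, telomeres leave their somatic arrangement and become attached to the inner nuclear membrane, and the chromosomes are then moved along the envelope so that homologues can find each other. The attachment rests on a complex of TERB1, TERB2 and MAJIN that meets the telomere through the shelterin protein TRF1 (the product of *Terf1*). SUN1 and KASH5 span the envelope as the meiotic LINC bridge (linker of nucleoskeleton and cytoskeleton) and couple telomeres to dynein, and Speedy A (*Spdya*) activates CDK2 at telomeres. Mouse oocytes pass through these steps in the fetal ovary.

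The data are 3′ Tag-Seq libraries, which read the ends of polyadenylated transcripts, of germ cells sorted from the ovaries of individual mouse embryos at E17.5 (embryonic day) by the GFP of a *Pou5f1* transgene. Their question was whether loss of the glucocorticoid receptor (GR, encoded by *Nr3c1*) alters transcription in female germ cells. WT (n = 3) and KO (n = 3) embryos came from an intercross of *Nr3c1* KO/+ mice, where the KO allele lacks exon 3 in every cell and was made with a β-actin Cre. Flox (n = 3) and cKO (n = 4) embryos were homozygous for the floxed *Nr3c1* allele, and cKO embryos also carried *Pou5f1*-CreERT2, a tamoxifen-dependent Cre knocked in at a germ cell gene. Dams of the conditional cross received tamoxifen at 125 µg per g of body weight at E10.5, so flox embryos were exposed to it as well, and WT and KO embryos were not. Embryos of all groups carried the *Pou5f1*-GFP transgene, and the strain labels give the alleles Tg(Pou5f1-EGFP)2Mnn and Nr3c1tm1.1Jda, with Pou5f1tm1.1(cre/Esr1*)Yseg in the conditional cross.

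Each library held 2048706 to 3674989 counts in genes, so that 1 count was worth 0.272 to 0.486 CPM (counts scaled to the same library total). The germ cell markers *Ddx4* (368 to 939 counts) and *Dazl* (1925 to 5513 counts) were present in every library, and 9 of 10 fetal oocyte markers had counts, summing to 9591 to 17046 CPM; *Sycp3*, whose interval lies wholly inside another gene's, was listed at 0. The 15 markers of ovarian somatic cells summed to 137 to 449 CPM, with *Foxl2* at 0 to 51 counts and *Nr2f2* at 49 to 233 counts, the 7 markers of macrophages and endothelium to 7.65 to 94.7 CPM, and the erythroid markers, 5 of 8 with counts, to 0 to 1263 CPM. Flox replicate 1 held the highest erythroid sum. *Nr3c1* had 54 to 167 counts in KO, 61 to 216 in WT, 82 to 211 in cKO and 105 to 215 in flox libraries. These ranges overlap (KO against WT log2 fold change -0.00, interval -1.11 to 1.10), so the counts show no depletion, and as 3′ tags come from the transcript end and not from exon 3, they are no direct check of the deletion.

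GR is a transcription factor with a known recognition sequence, so the 250 bases upstream of the start site were read for the members with an entry in RefSeq (GRCm38.p6, the same build as mm10). 5 of the 8 members matched, with 6 start sites. Those of *Terb1*, the member with the narrowest intervals below, of both genes of the LINC bridge and of *Cdk2* are printed 5′ to 3′ in the direction of transcription. Capitals mark the single match to a searched motif.
Terb1 (chr8:104509888-104510137, minus strand): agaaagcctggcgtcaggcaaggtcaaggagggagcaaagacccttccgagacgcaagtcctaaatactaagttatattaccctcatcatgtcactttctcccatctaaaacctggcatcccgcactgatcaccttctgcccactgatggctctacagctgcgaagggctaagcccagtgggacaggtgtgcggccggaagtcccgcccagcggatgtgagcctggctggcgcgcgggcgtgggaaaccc
Sun1 (chr5:139200387-139200636, plus strand): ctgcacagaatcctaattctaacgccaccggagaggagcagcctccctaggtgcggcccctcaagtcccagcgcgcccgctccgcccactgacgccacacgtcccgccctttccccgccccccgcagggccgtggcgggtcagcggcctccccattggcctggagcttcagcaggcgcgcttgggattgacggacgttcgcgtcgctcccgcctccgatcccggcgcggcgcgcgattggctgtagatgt
Ccdc155 (chr7:45204893-45205142, minus strand): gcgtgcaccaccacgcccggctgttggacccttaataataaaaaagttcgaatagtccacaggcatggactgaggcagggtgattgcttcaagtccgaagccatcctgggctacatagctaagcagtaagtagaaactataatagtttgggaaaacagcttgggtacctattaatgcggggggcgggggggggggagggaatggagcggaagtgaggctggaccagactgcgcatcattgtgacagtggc
Cdk2 (chr10:128705052-128705301, minus strand): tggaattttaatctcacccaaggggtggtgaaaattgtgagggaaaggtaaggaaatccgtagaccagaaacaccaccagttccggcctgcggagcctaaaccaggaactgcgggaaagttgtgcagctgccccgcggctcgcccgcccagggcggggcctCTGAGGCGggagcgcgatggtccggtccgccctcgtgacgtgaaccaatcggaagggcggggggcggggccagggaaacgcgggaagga

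The motifs searched on both strands were the GR palindrome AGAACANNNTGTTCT, its arm AGAACA, which the palindrome contains and which the other strand spells as TGTTCT, and CNCCTCAG (CTGAGGNG). The last is a separate motif and no part of the GR palindrome. Over all 32851 RefSeq windows of this length, 3 windows (0.00913%) held the palindrome, 16.1% the arm and 6.42% CNCCTCAG. None of the 6 windows of the members held the palindrome or the arm, and 1 held CNCCTCAG: CTGAGGCG in *Cdk2*, at bases 89 to 82 upstream of the start. The windows of *Sun1* (70% GC, 30 CpG at its first start site) and *Spdya* (70.4% GC, 33 CpG) were the richest in CpG, against medians of 52.4% GC and 6 CpG over all windows. *Cdk2* (63.2% GC, 21 CpG), *Terb1* (58% GC, 13 CpG) and *Ccdc155* (53.2% GC, 9 CpG) followed, and the second *Sun1* start (43.6% GC) held 1 CpG. These are letters in 1 window per start site and say nothing of binding.

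The attachment complex was read most securely at *Terb1*. *Terb1* (ENSMUSG00000052616.10; mm10 chr8:104446719-104509910, minus strand), whose product links the telomere to the rest of the complex, stood at 127, 155 and 249 CPM in WT and at 194, 200 and 138 CPM in KO embryos. The KO values lie inside the range of the WT values, and the group means were 177 ± 63.7 (SD, n = 3) in WT and 177 ± 34.4 (n = 3) in KO. In the conditional cross *Terb1* reached 219, 344 and 340 CPM in flox and 202, 305, 168 and 183 CPM in cKO embryos. The means there were 301 ± 71.2 (n = 3) in flox and 214 ± 61.7 (n = 4) in cKO. Of the cKO embryos, 3 lay below all flox embryos and cKO replicate 2 lay within the flox range. With 288 to 916 counts per library, counting error was 4.28% of the level. The spread between embryos, edgeR's biological coefficient of variation, was 30.8%, beside a median of 30.9% for genes of like abundance. It is estimated over all groups together and is drawn towards the value of genes of like abundance, so their nearness is partly built in.

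*Terb2* (ENSMUSG00000027229.5; chr2:122186272-122206397, plus strand) encodes the partner that joins TERB1 to MAJIN. Its levels were 18.6, 44.4 and 19.6 CPM in WT and 8.74, 31.6 and 4.40 CPM in KO embryos. 2 of the 3 KO embryos lay below every WT embryo and the other within the WT range, on 10 to 93 counts per library in these 6 embryos. Flox embryos held 18.2, 20.9 and 15.5 CPM and cKO embryos 19.7, 37.5, 13.2 and 13.1 CPM, so that the flox values fell inside the cKO range. The biological coefficient of variation over all groups was 71.0%, beside 77.6% for genes of like abundance. The groups differed in their own spread, from 18.2 ± 2.68 CPM (SD, n = 3) in flox to 14.9 ± 14.6 CPM (n = 3) in KO embryos.

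*Majin* (ENSMUSG00000024786.9; chr19:6184388-6224225, plus strand) encodes the subunit that anchors the complex in the inner nuclear membrane. WT embryos held 82.3, 102 and 82.1 CPM and KO embryos 87.0, 142 and 70.8 CPM. Flox embryos held 42.7, 103 and 85.3 CPM and cKO embryos 31.5, 118, 43.3 and 62.8 CPM. The WT embryos were the closest together, and each of the other groups spanned their whole range. Replicate 2 was the highest in all 4 groups for *Majin*, and also for *Terb2*; the labels do not tie replicate numbers across groups.

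The LINC bridge joins the inner to the outer nuclear membrane. *Sun1* (ENSMUSG00000036817.14; chr5:139200637-139249840, plus strand), the inner membrane side of the bridge, held 31.4, 17.2 and 26.6 CPM in WT, 44.1, 19.0 and 21.5 CPM in KO, 34.7, 21.8 and 14.5 CPM in flox and 39.8, 49.6, 70.1 and 28.6 CPM in cKO embryos. The KO and WT ranges overlapped, while 3 of 4 cKO embryos lay above all 3 flox embryos (means 47.0 ± 17.6, n = 4, and 23.7 ± 10.2, n = 3). The gene *4930520M14Rik* overlaps 1.8% of the *Sun1* interval.

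*Ccdc155* (ENSMUSG00000038292.14; chr7:45183624-45204892, minus strand) encodes KASH5, the outer membrane protein that recruits dynein. It held 9.73, 14.3 and 17.1 CPM in WT and 41.4, 5.83 and 15.0 CPM in KO embryos. Its levels were 8.03, 18.2 and 0.970 CPM in flox and 6.93, 3.90, 20.6 and 12.4 CPM in cKO embryos. No group stood apart: KO replicate 1 with 109 counts and flox replicate 3 with 2 counts were the extremes. The biological coefficient of variation over all groups, 90.4%, was the highest among the members, beside 94.9% for genes of like abundance.

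*Cdk2* (ENSMUSG00000025358.16; chr10:128697939-128705031, minus strand), the cyclin-dependent kinase that sits at meiotic telomeres and crossover sites, held 13.7, 27.7 and 16.9 CPM in WT and 15.6, 22.9 and 20.2 CPM in KO embryos. Flox embryos held 33.4, 27.5 and 9.70 CPM and cKO embryos 24.6, 3.12, 8.81 and 4.49 CPM. The KO embryos fell within the WT range. Of the cKO embryos, 3 of 4, with 8 to 24 counts, lay below all 3 flox embryos, and cKO replicate 1 lay within the flox range. The gene *Pmel* (0 to 75 counts) overlaps 11.8% of the *Cdk2* interval but none of its last 1000 bases, the stretch that 3′ tags come from.

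*Terf1* (ENSMUSG00000025925.14; chr1:15805646-15844052, plus strand) encodes TRF1, which binds the telomere repeat and receives TERB1. It held 54.0, 22.5 and 13.9 CPM in WT and 41.8, 47.6 and 47.1 CPM in KO embryos. All 3 KO embryos lay above the WT median but under WT replicate 1, and they varied little among themselves (45.5 ± 3.21, n = 3, against 30.1 ± 21.1, n = 3, in WT). Flox embryos held 117, 73.8 and 63.5 CPM and cKO embryos 28.7, 55.4, 61.3 and 62.5 CPM. Every cKO embryo thus lay below every flox embryo, with the highest cKO and the lowest flox embryo close together (62.5 and 63.5 CPM).

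*Spdya* (ENSMUSG00000052525.14; chr17:71552061-71589533, plus strand), the activator of CDK2, was listed at 0 counts in every library. A count of 0 allows a level of up to 0.816 to 1.46 CPM in a library (3 counts, counting error only). Of its 37473 bases, 36990 (98.7%) are shared with the intervals of *Mettl4-ps1* on the same strand (0 to 40 counts) and *Trmt61b* on the opposite strand (0 to 11 counts), which leaves 483 bases that belong to *Spdya* alone, and all of its last 1000 bases are shared. Reads that fall on more than 1 gene are often left uncounted, and how these were treated is not given in the sources used here. Whether the 0 reflects the level of *Spdya* or the overlap was not tested, and *Spdya* enters no comparison below.

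**Figure D1:**
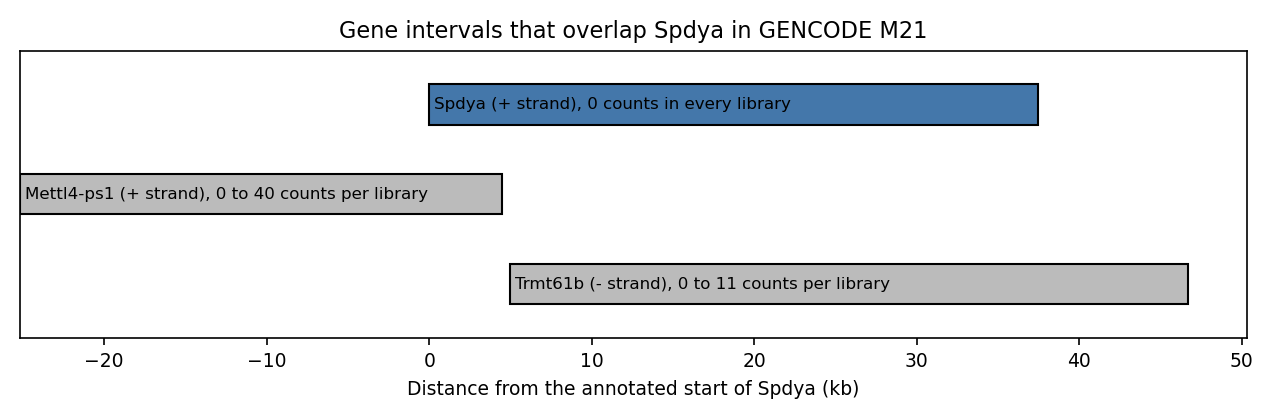
Gene intervals around *Spdya* in GENCODE M21, by distance in kilobases from its annotated start, with the range of counts over the 13 libraries. *Mettl4-ps1* and *Trmt61b* cover 98.7% of the *Spdya* interval, and *Spdya* has 0 counts in every library.

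By mean level, the groups ran from high to low as flox, cKO, WT and KO for *Terb1*, and as flox, cKO, KO and WT for *Terf1*. *Terb2* ran as WT, cKO, flox and KO, and *Majin* as KO, WT, flox and cKO. *Sun1* ran as cKO, KO, WT and flox, *Ccdc155* as KO, WT, cKO and flox, and *Cdk2* as flox, KO, WT and cKO. Of the 21 pairs of neighbouring groups in these orders, the ranges of 20 overlapped, and only flox and cKO for *Terf1* did not. Over all genes, flox and cKO did not overlap for 4.97%. Among groups not next to each other, flox (63.5 to 117 CPM) also lay above WT (up to 54.0) and KO (up to 47.6) for *Terf1*. For *Terb1*, flox (219 to 344 CPM) lay above KO (up to 200). The share of all genes without overlap was not computed for these pairs. No order of the 4 groups was shared by 2 members. In these bulk samples, a lower share of cells that express a gene and less RNA per cell cannot be told apart.

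**Figure D2:**
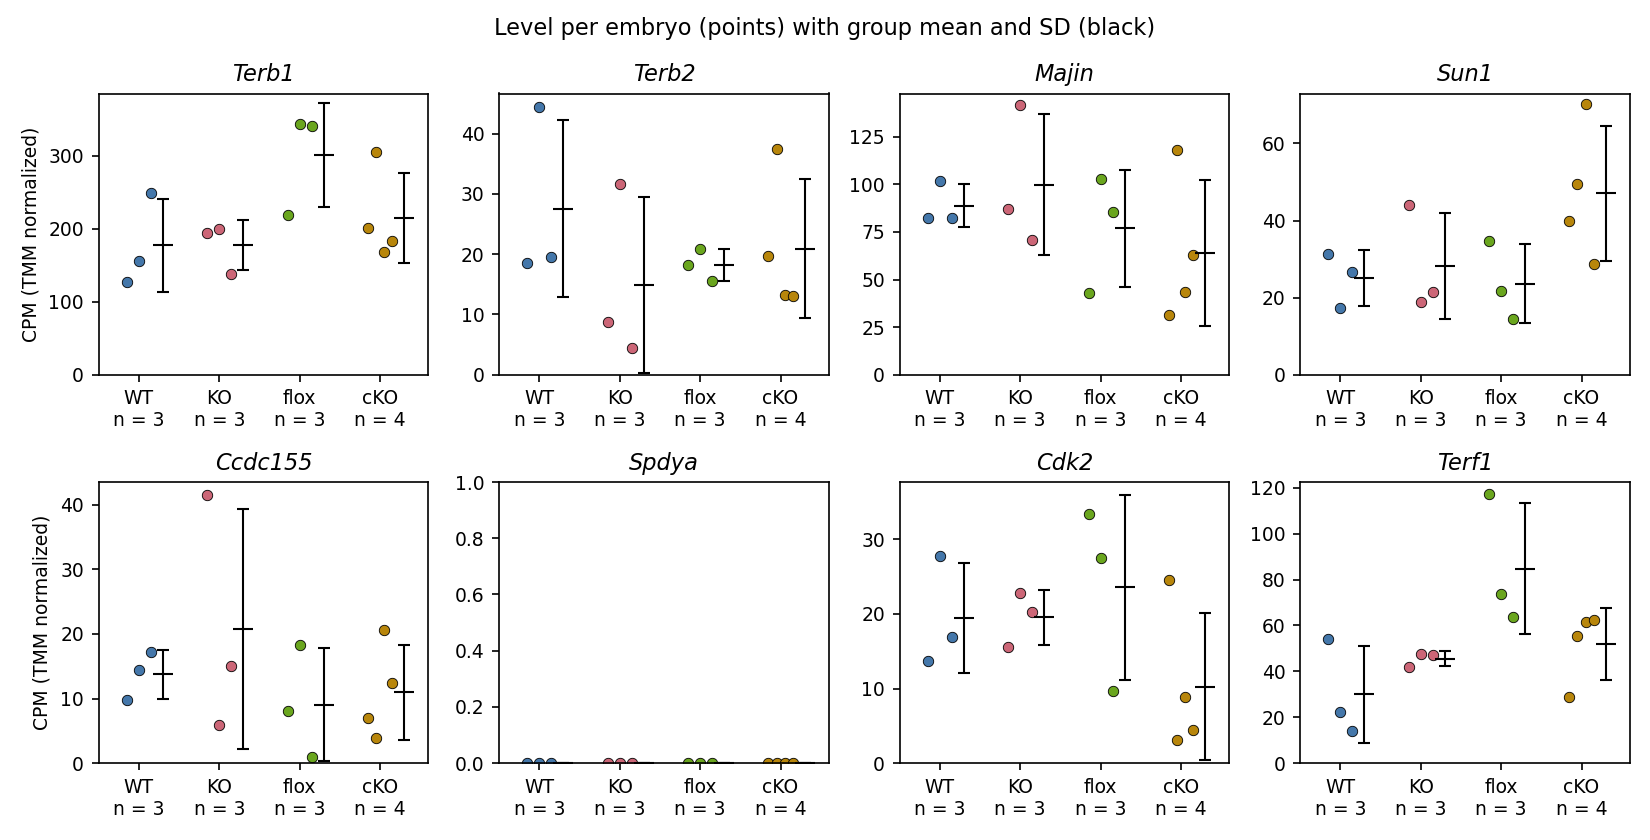
Level of each member in CPM (y axis, starting at 0) in WT (n = 3), KO (n = 3), flox (n = 3) and cKO (n = 4) embryos, with 1 point per embryo and the group mean and SD in black. *Terf1* is the 1 member with flox (63.5 to 117 CPM) wholly above cKO (28.7 to 62.5 CPM), and *Spdya* is at 0 throughout.

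The first comparison asked whether constitutive loss of GR altered these genes. None of the 7 tested members was called in KO against WT at an adjusted p of 0.05 (quasi-likelihood F test in edgeR, p adjusted by Benjamini-Hochberg), as was 0% of all 13086 genes tested. At an unadjusted p under 0.05 the count was 0 of 7 members, beside 5.82% of all genes (761), and neither limma voom nor DESeq2, which called 0 and 10 genes in all, called a member. The estimates were positive for 5 members and negative for 2, with a median log2 fold change of 0.17 against -0.03 over all genes.

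*Terb1* had the most precise estimate, a log2 fold change of -0.00 (SE 0.33, 95% interval -0.69 to 0.68), the single interval of the 7 that lay within 1 log2 unit of 0, beside 11.6% of all genes. Among its partners, *Terb2* was estimated at -0.88 (SE 0.87, interval -2.68 to 0.92, adjusted p = 0.999) and *Majin* at 0.17 (SE 0.47, interval -0.80 to 1.14). The *Terb2* interval spans a fall of over 2 log2 units and a gain of nearly 1, so these libraries do not fix the level of *Terb2* in KO embryos. Of the bridge genes, *Sun1* was estimated at 0.17 (interval -1.14 to 1.48) and *Ccdc155* at 0.59 (interval -1.75 to 2.93). *Cdk2* was estimated at 0.01 (interval -1.92 to 1.94). *Terf1* had the lowest p of the members, at 0.60 (SE 0.53, interval -0.49 to 1.69, adjusted p = 0.988 by edgeR).

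Exact two-sided permutation tests over the 20 divisions of 3 and 3 embryos, which cannot go below p = 0.1, gave p = 0.3 for *Terb2*, 0.4 for *Terf1* and 0.8 to 1 for the other members. No member had KO and WT ranges that did not overlap, beside 9.46% of all genes. The *Terf1* estimate rested on single WT embryos: it was 1.34 without WT replicate 1 and 0.26 without WT replicate 3. The 9 tested oocyte markers had a median log2 fold change of 0.31, with 8 estimates above 0, 0 under an unadjusted p of 0.05 and none called by edgeR, limma voom or DESeq2. KO and WT ranges did not overlap for 3 of these 9, all higher in KO, beside 9.46% of all genes. *Ddx4* held 262 to 317 CPM in KO and 163 to 213 CPM in WT embryos. *Dazl* held 1404 to 1482 and 1124 to 1271 CPM, and *Stag3* 438 to 477 and 333 to 386 CPM. In cKO against flox 0 of 9 lay apart. The somatic sum was 137 to 178 CPM in KO and 165 to 197 CPM in WT libraries. That of macrophages and endothelium was 7.65 to 32.0 and 30.9 to 40.0 CPM, with overlap in both sums. Of 12 tested somatic markers, 1 did not overlap: *Nr2f2*, at 23.8 to 37.8 CPM in KO and 46.0 to 103 CPM in WT embryos. The part of other cells in the member levels was not tested.

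**Figure D3:**
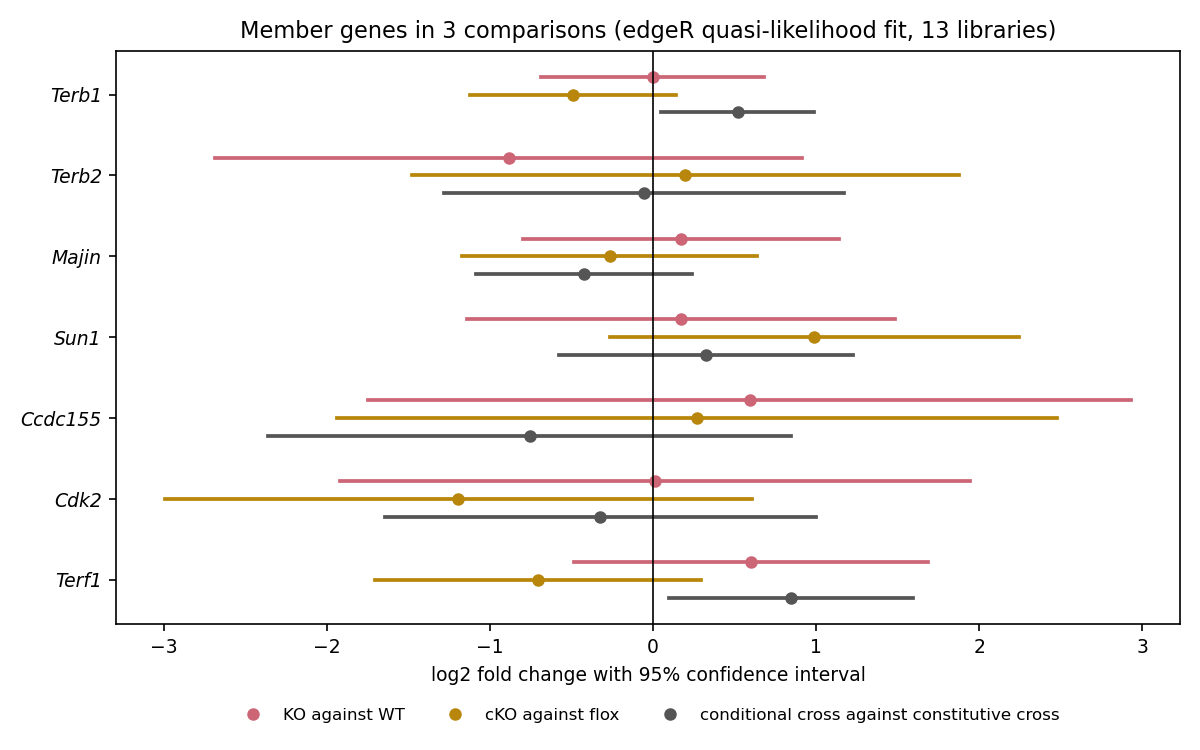
Log2 fold change (x axis) with its 95% confidence interval for the 7 tested members in KO against WT, cKO against flox and the conditional against the constitutive cross, from the edgeR fit of 13 libraries. All intervals of the first pair of comparisons include 0, and those of *Terb1* (0.05 to 0.99) and *Terf1* (0.10 to 1.59) between crosses do not.

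The conditional cross asked the same with deletion in germ cells. Again none of the 7 members was called in cKO against flox (quasi-likelihood F test in edgeR; limma voom and DESeq2, with 0 and 5 genes called in all, likewise called none of them), nor was any gene (0%), and 0 of 7 members had an unadjusted p under 0.05, beside 3.19% of all genes (418). The estimates were positive for 3 members and negative for 4, with a median of -0.27 against -0.01 over all genes. All 7 intervals reached beyond 1 log2 unit on at least 1 side, while 14.9% of all genes stayed within it.

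The lowest p belonged to *Sun1*, with a log2 fold change of 0.99 (SE 0.61, interval -0.27 to 2.24, adjusted p = 1.00 by edgeR), and the exact permutation test over 35 divisions of 4 and 3 embryos gave p = 0.114. *Terb1* was estimated at -0.49 (SE 0.31, interval -1.12 to 0.14) with an exact permutation p of 0.114. *Cdk2* was estimated at -1.19 (SE 0.87, interval -2.99 to 0.60), also with an exact permutation p of 0.114. In each of these 3 genes 1 cKO embryo lay within the flox range. Over the 13 fits that each left out 1 library, *Sun1* ran from 0.74 to 1.38, *Terb1* from -0.71 (without cKO replicate 2) to -0.38, and *Cdk2* from -2.08 (without cKO replicate 1) to -0.85, and none of them brought an adjusted p to 0.05. The unadjusted edgeR p fell under 0.05 for *Terb1* without cKO replicate 2 (0.0381) and for *Cdk2* without cKO replicate 1 (0.0384).

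*Terf1*, whose ranges did not overlap, was estimated at -0.71 (SE 0.48, interval -1.70 to 0.29), and its exact permutation p was 0.0571, where 0.0286 is the smallest that 4 against 3 embryos allow. It was lower than every flox embryo in 4 of 4 cKO embryos, and 1 of 7 members without overlap stands beside 4.97% of all genes. Without flox replicate 1, the library with the highest erythroid sum (1263 CPM, against 284 to 397 in the other flox and 78.4 to 199 in the cKO libraries), the *Terf1* estimate was -0.40. That library also held the highest *Terf1* level. In cKO against flox all 3 tested erythroid genes had lower estimates and an unadjusted edgeR p under 0.05, beside 3.19% of all genes. None was called with the filter on low counts, while edgeR without it called *Hba-a1* (-2.39) and *Hbb-bs* (-1.95). The part of red cell RNA in the *Terf1* levels was not tested. *Terb2* (0.20), *Majin* (-0.27) and *Ccdc155* (0.27) were estimated nearer to 0, with exact permutation p of 0.629 to 1.

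Averaged over both deletion models, no member was called by edgeR and 0 of 7 reached an unadjusted p of 0.05, beside 0% and 5.34% of all genes (699 at the unadjusted p); limma voom and DESeq2, with 0 and 12 genes called in all, called none of the members. *Sun1* had the highest average, 0.58 (SE 0.44, adjusted p = 0.946). This average bounds 3 members within 1 log2 unit: *Terb1* at -0.25 (interval -0.71 to 0.22), *Majin* at -0.05 (-0.71 to 0.62) and *Terf1* at -0.05 (-0.79 to 0.69), beside 28.2% of all genes. For *Terb2* (-1.56 to 0.88), *Ccdc155* (-1.18 to 2.04), *Cdk2* (-1.91 to 0.73) and *Sun1* (-0.32 to 1.48) a change by 2-fold in at least 1 direction is within the interval.

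The *Terf1* average near 0 came from estimates of opposite sign, 0.60 in KO against WT and -0.71 in cKO against flox. The test of the difference between both effects gave -1.31 (SE 0.72, interval -2.78 to 0.17, adjusted p = 1.00), the lowest p among the members. None of the 7 was called on this difference by edgeR, limma voom or DESeq2 (0, 0 and 4 genes called in all), and 0 of 7 had an unadjusted edgeR p under 0.05, beside 0% and 4.39% of all genes (574 at the unadjusted p). *Terf1* had an unadjusted p under 0.05 with limma voom (0.0349) and by edgeR without WT replicate 1 (0.0105). The other differences ran from -1.20 for *Cdk2* to 1.08 for *Terb2*, with SE of 0.45 to 1.55.

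The 2 lowest unadjusted p among the members came from the comparison of the crosses, not from a deletion. *Terf1* stood at 66.0 ± 26.5 CPM (SD, n = 7) in the conditional and 37.8 ± 15.9 CPM (n = 6) in the constitutive cross, a log2 difference of 0.85 (SE 0.36, interval 0.10 to 1.59). *Terb1*, whose product binds TRF1, stood at 251 ± 75.8 CPM (n = 7) and 177 ± 45.8 CPM (n = 6), a log2 difference of 0.52 (SE 0.23, interval 0.05 to 0.99). In each gene 6 of 7 embryos of the conditional cross lay above the median of the constitutive cross. Their unadjusted edgeR p were 0.0284 and 0.0322 and their adjusted p 0.838 for both, so neither was called. Exact permutation tests over 1716 divisions, whose smallest p is 0.000583, gave 0.0536 for *Terf1* and 0.0571 for *Terb1*.

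So 2 of 7 members had an unadjusted p under 0.05 between crosses, beside 5.59% of all genes (731), and 0 of 7 an adjusted p at the threshold, beside 0.00764% (1 gene); limma voom and DESeq2, with 1 and 33 genes called in all, called none of the members. No member had crosses without overlap, as had 0.16% of all genes. Both members reached an unadjusted p of 0.05 under each of the 5 other settings of the fit, and with 1 library left out *Terf1* did so in 10 and *Terb1* in 7 of 13 fits. Without WT replicate 2 neither did (0.76 and 0.48), and without flox replicate 1 *Terf1* did not (0.70). The other members were estimated at -0.76 (*Ccdc155*), -0.42 (*Majin*), -0.32 (*Cdk2*), -0.05 (*Terb2*) and 0.33 (*Sun1*), with exact permutation p of 0.125 to 0.77, and the median over the 7 members was -0.05 against 0.03 over all genes.

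The marker sums of other cells overlapped between the crosses. The 15 somatic markers summed to 143 to 449 CPM there and to 137 to 197 CPM in the constitutive cross, and the erythroid markers to 78.4 to 1263 and 0 to 238 CPM. The highest sums of both kinds were in the conditional cross, while flox replicate 1 (143 CPM) lay below every WT library in the somatic sum. No somatic or erythroid gene was called by edgeR with the filter on low counts and all 13 libraries. Between crosses, however, DESeq2 called the stromal collagen gene *Col1a1* (log2 difference 1.99). There edgeR without the filter called *Col1a1* (1.97) and the globin gene *Hbb-bs* (2.01). The same unfiltered fit also called *Hba-a1* and *Hbb-bs* in cKO against flox. It called 3 globin genes in the average of both deletion effects and *Hba-a1* in their difference. With the filter, edgeR called *Col1a1* between crosses when WT replicate 3 was left out (2.29, adjusted p = 0.0297). The part of these cells in the *Terf1* and *Terb1* levels was not tested. Tamoxifen, the floxed background and processing by cross cannot be told apart in this comparison, which uses the same libraries as both deletion comparisons.

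Whether the levels of the members followed each other from embryo to embryo was read from their correlations. Over the 13 libraries and 21 pairs of members, Pearson's r of log2 CPM was positive for 8 pairs. The highest r, 0.364 (permutation p = 0.221), joined *Terb2* and *Majin*, with Spearman's rho of 0.522 (permutation p = 0.0713). Their r was 0.416 without the 2 libraries farthest from the median of *Terb2*. It was 0.710 within the constitutive and 0.503 within the conditional cross. *Terb1* followed *Terb2* with r = 0.304 and *Majin* with r = 0.241, the latter at 0.315 within the constitutive and 0.799 within the conditional cross. The lowest r, -0.481 (permutation p = 0.0965), lay between *Majin* and *Sun1*. No pair passed adjustment over the 21 pairs (lowest adjusted p 0.766 for r and 0.864 for rho, permutation tests), and all pairs share the libraries and their depth.

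The genes whose levels most resembled those of a member were sought among the 6561 genes with at least 10 counts in every library, which include 5 members. For *Majin* these were *Gmps* (r = 0.938 over 13 libraries), *Sycp2* (0.870), a gene of the synaptonemal complex axis, and *Pdxdc1* (0.860). For *Terb2* they were *Zfp148* (0.877), *Atm* (0.868), a kinase gene of the DNA break response, and *Tti1* (0.854). For *Terb1* they were *Gm5879* (0.875), *Acin1* (0.797) and *Mrps16* (0.754). For *Terf1* they were *Ndufa7* (0.860), *Efcab12* (0.830) and *Dppa4* (0.830), and for *Sun1* *Cept1* (0.829), *Radil* (0.811) and *Dapk1* (0.806). No member was among the 3 genes most like another, and the r are the highest of 6561 and describe these libraries.

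The genes that work beside the members were read in 5 lists. Of shelterin, which caps telomeres, all 6 other subunits were tested. In KO against WT, 1 of the 6 had an unadjusted p under 0.05, beside 5.82% of all genes: *Pot1b*, which binds the single-stranded overhang. WT embryos held 17.3, 20.1 and 23.7 CPM and KO embryos 43.0, 87.5 and 74.3 CPM, without overlap (as 9.46% of all genes), for a log2 fold change of 1.74 (SE 0.66, adjusted p = 0.847 by edgeR). In the conditional cross *Pot1b* had the opposite sign, with 103, 30.7 and 32.0 CPM in flox and 39.5, 51.9, 8.45 and 16.2 CPM in cKO embryos (-0.93, SE 0.60), and the difference of both effects was -2.67 (SE 0.89, adjusted p = 1.00). In cKO against flox 3 of 6 had an unadjusted p under 0.05, beside 3.19% of all genes, all with higher estimates in cKO: *Tinf2*, which bridges TRF1 and TRF2, at 1.46 (SE 0.61), and, named after their values were seen, *Acd* at 1.38 (SE 0.67) and *Terf2* at 1.04 (SE 0.45), each with an adjusted p of 1.00 by edgeR.

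*Tinf2* held 37.2, 14.7 and 36.4 CPM in flox and 136, 71.8, 58.0 and 58.0 CPM in cKO embryos, and 19.9, 9.56 and 96.5 CPM in WT and 89.3, 57.9 and 97.6 CPM in KO embryos. The cKO embryos lay above all flox embryos, while KO and WT embryos overlapped. *Terf2*, the close relative of *Terf1*, held 56.2, 61.3 and 60.1 CPM in flox and 169, 68.3, 171 and 77.6 CPM in cKO embryos, with no overlap. These 2 of 6 genes without overlap stand beside 4.97% of all genes. *Terf1* lay the other way in the same embryos. Other genes overlap 63.3% of the *Tinf2* and 44.4% of the *Acd* interval, and 100% of the last 1000 bases of each, so their counts are uncertain. Between crosses 0 of 6 had an unadjusted p under 0.05, the lowest being *Acd* at 0.46, and the shelterin medians were 0.59 in KO against WT and 0.56 in cKO against flox.

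Of 16 further LINC and nuclear envelope genes, 12 were tested and *Sun5* and *Syne4* had 0 counts in all libraries. None had an unadjusted p under 0.05 in either deletion comparison, the lowest being those of *Syne1*, which encodes a giant nesprin (1.20, SE 0.78, in KO against WT), and *Syne2*, which encodes another (-0.82, SE 0.44, in cKO against flox). Between crosses *Emd*, the gene of emerin, was 1 of 12 (-0.62, SE 0.28), beside 5.59% of all genes. *Sun2*, another SUN gene, named after its values were seen, was estimated at -0.75 (SE 0.90) in KO and -0.38 (SE 0.83) in cKO embryos. *Sun1* stood at 0.17 and 0.99 there.

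Of 19 dynein and dynactin genes, which encode the motor that KASH5 recruits, 16 were tested; *Dctn3*, wholly inside another gene's interval, had 0 counts and *Dynlt1* was not found in the annotation. *Dync1h1*, the gene of the dynein heavy chain, held 228, 310 and 237 CPM in WT and 163, 132 and 164 CPM in KO embryos, without overlap as 9.46% of all genes (-0.76, SE 0.31, adjusted p = 0.847 by edgeR). In the conditional cross its estimate was -0.15 (SE 0.28). *Dctn4*, a dynactin subunit gene, held 158, 165 and 87.3 CPM in WT and 246, 231 and 230 CPM in KO embryos (0.78, SE 0.35), and it had the lowest p of the list between crosses (0.76, SE 0.24, adjusted p = 0.777 by edgeR). These were 2 of 16 genes under an unadjusted p of 0.05 in KO against WT, 1 in each direction, beside 5.82% of all genes. Ranges did not overlap there for 3 of 16 genes, beside 9.46% of all genes. They were *Dync1h1*, *Dctn4* and, named after its values were seen, *Dync1i1* (5.31 to 23.4 CPM in WT and 0.972 to 2.66 CPM, on 2 to 7 counts, in KO). In cKO against flox the only gene of 16, beside 3.19% of all genes, was *Dctn1*, with 1, 5 and 0 counts in flox and 26, 10, 127 and 3 counts in cKO embryos, too few for a fold change.

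Of 11 CDK2 partners and inhibitors, 10 were tested. *Cks1b*, which encodes a small subunit that binds cyclin-dependent kinases, held 60.6, 32.0 and 60.6 CPM in WT and 82.5, 114 and 161 CPM in KO embryos, without overlap, as 9.46% of all genes. Flox embryos held 70.2, 30.2 and 32.5 CPM and cKO embryos 170, 58.2, 100 and 82.5 CPM, of which 3 of 4 lay above all flox embryos. The log2 fold changes were 1.22 (SE 0.47) and 1.21 (SE 0.45), and their average of 1.22 (SE 0.32) had an unadjusted edgeR p of 0.000952 and an adjusted p of 0.882. *Cks1b* was thus the 1 gene of 10 under an unadjusted p of 0.05 in each deletion comparison, beside 5.82% (KO against WT) and 3.19% (cKO against flox) of all genes, with higher estimates in both and no call; *Cdk2* itself stood at 0.01 and -1.19. Between crosses the lowest p was that of *Cdkn1c* (-0.52).

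All 11 telomerase and telomere replication genes were tested. None had an unadjusted p under 0.05 in either deletion comparison, where the lowest were those of *Stn1* (-1.44 in KO against WT) and *Wrap53* (2.38 in cKO against flox). Between crosses *Nhp2*, a telomerase ribonucleoprotein gene, was 1 of 11, beside 5.59% of all genes, at 1.32 (SE 0.47, adjusted p = 0.777 by edgeR). Over the 5 lists, edgeR called 0 of 55 genes tested in any comparison, and neither limma voom nor DESeq2 called any of them.

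**Figure D4:**
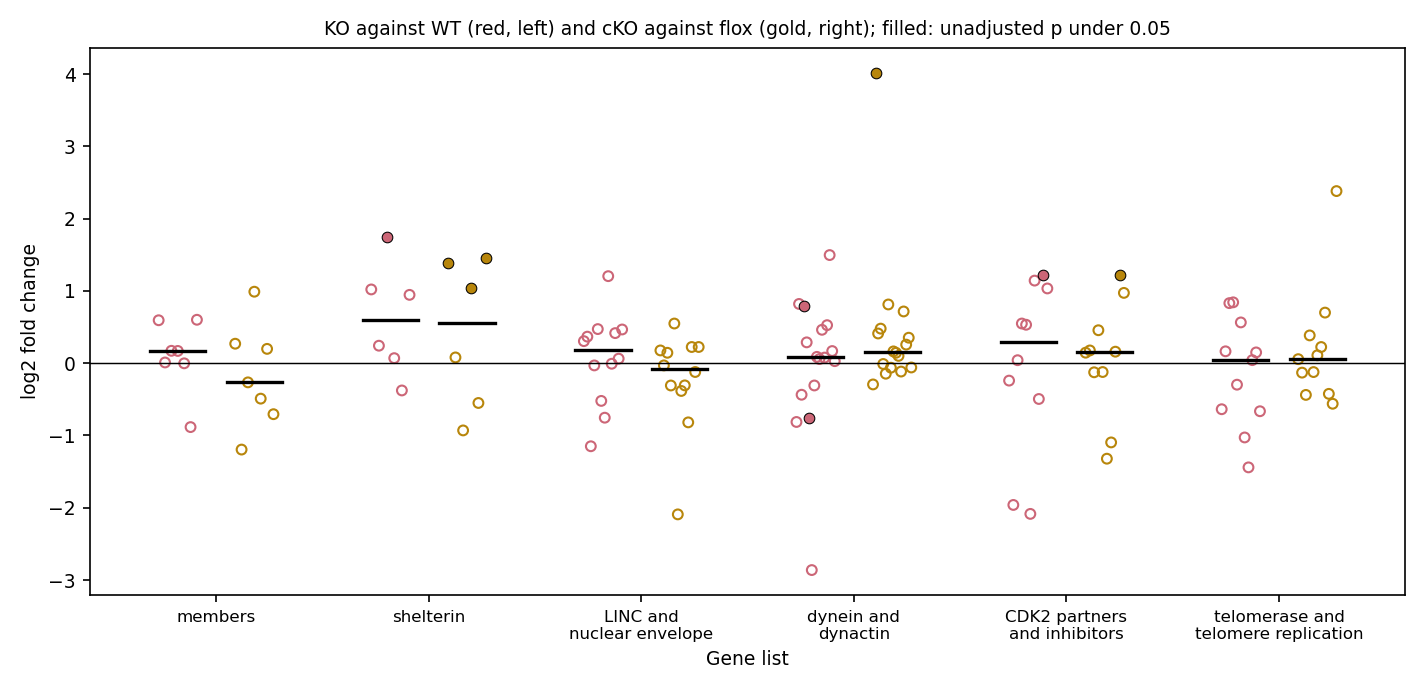
Log2 fold change (y axis) of each tested gene of the members and of the 5 lists in KO against WT (left of each pair) and cKO against flox (right), with black bars at the medians and filled points at an unadjusted edgeR p under 0.05. No member is filled, and the shelterin medians of 0.59 and 0.56 compare with -0.03 and -0.01 over all genes.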

How the data were processed

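Germ cells of 13 single embryos were profiled by 3′ Tag-Seq (QuantSeq FWD, no molecular identifiers described). According to the methods, the authors trimmed adapters with cutadapt, aligned reads to mm10 with STAR 2.6.0 and counted them per gene with featureCounts 1.6.3, and the deposited values are raw counts. Annotation and strand setting of the counting are not given in the sources used here, and every gene's deposited length equals its whole interval, so genes that overlap others may lose reads. The authors' edgeR 3.28.1 and limma 3.42.2 tables (log2 fold change, mean expression, t, p, adjusted p and B) were not used.

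Gene identifiers were named with GENCODE M21 (54587 of 55335 genes). Counts were TMM-normalized and filtered with filterByExpr (minimum count 10, minimum total 15), leaving 13086 genes, in edgeR 4.0.16 (R 4.3.3). 1 quasi-likelihood fit of 13 libraries gave 5 contrasts: each deletion, their average, their difference and the crosses. p-values were adjusted by Benjamini-Hochberg over all genes tested and called at 0.05. Members were also compared by exact two-sided permutation of log2 CPM (prior count 2). Alternatives were RLE normalization, no filter, DESeq2 1.42.0, limma voom 3.58.1, a replicate block, only the groups compared, and each library left out. The script was tested on simulated counts.

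The members and gene lists were chosen with earlier results of these data known. Named genes are all members and, of each list, the gene with the lowest p per comparison, the genes at 0 in all libraries and, as likeness, the 3 genes with the highest r per member with at least 10 counts in every library; others are marked as named after their values were seen. Replicates are separate embryos per the labels. There were 3 or 4 embryos a group and 2048706 to 3674989 counts per library. For each tested member the biological coefficient of variation over all groups exceeded counting error at its mean count, and the sources of that spread were not tested. Intervals are 95%, and floors cover counting error only.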

Additional observations from a re-analysis of the deposited data

How the results depend on the processing

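No member was called under any alternative, where the lowest adjusted p of a member was 0.653 (between crosses). Over the 7 members and 5 comparisons, 180 fold changes kept their sign and 9 reversed under other settings, and 417 kept it and 38 reversed with 1 library left out. For *Terb1* in KO against WT the log2 fold change, -0.00, was 0.014 with RLE normalization, 0.023 without a filter, 0.013 with DESeq2 and 0.019 with the replicate block. The average for *Terf1* (-0.05) was 0.11 with voom and 0.0037 with the block, the difference for *Ccdc155* (-0.32) was 0.43 with voom, and *Terb2* between crosses (-0.05) was 0.22 with voom and 0.23 with the block. With 1 library left out, KO against WT ran from -0.18 to 0.34 for *Terb1*, -0.16 to 0.38 for *Majin*, -0.30 to 0.40 for *Sun1*, -0.39 to 1.04 for *Ccdc155* and -0.17 to 0.36 for *Cdk2*. cKO against flox ran from -0.25 to 0.38 for *Terb2*, -0.74 to 0.00022 for *Majin* and -0.25 to 1.28 for *Ccdc155*. The average ran from -0.28 to 0.091 for *Majin*, -0.054 to 0.94 for *Ccdc155* and -0.22 to 0.32 for *Terf1*, the difference from -0.85 to 0.67 for *Ccdc155*, and the crosses from -0.28 to 0.54 for *Terb2*. Genes called over the whole table were 15 (KO against WT), 11 (cKO against flox), 17 (average), 8 (difference) and 35 (crosses) without a filter, which tests more genes, and 10, 5, 12, 4 and 33 with DESeq2, against 0, 0, 0, 0 and 1; the cause of the latter was not tested. With 1 library left out they were 0 to 2 (2 without WT replicate 3), 0, 0 to 1 (1 without flox replicate 1), 0, and 1 to 11 (11 without WT replicate 3, 4 without KO replicate 3). Embryos with the same replicate number had r of deviations from the group means of -0.0232 to 0.0636. Embryos with unlike numbers had r of -0.0451 to 0.0241. Replicate 3 of flox, KO and WT has another number in its column name, so this check cannot decide whether embryos were paired. The replicate block, by replicate number, called 0, 0, 0, 0 and 1 genes, as without it. Counting error at the mean count was 14.1% to 16.9% of the level for *Ccdc155*, *Cdk2* and *Terb2*. Their spread between embryos, as the biological coefficient of variation over all groups, was 71.0% to 90.4%. Single libraries fell to 2 (*Ccdc155*), 8 (*Cdk2*) and 10 (*Terb2*) counts, and the part of depth in this spread was not tested.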
